A study of Mus musculus with 12 samples.

Results

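Chemokine receptors are proteins of the cell surface that steer leukocytes along gradients of chemokines, and 7 of their genes are described here in mouse Ly6C+ monocytes: Ccr1, Ccr2, Ccr7, Cx3cr1, Cxcr2, Cxcr3 and Cxcr4. They were taken by gene symbol from a table of 55487 genes. All 7 were found, and all 7 were among the 14618 genes that had enough counts to be tested. Ccr7 passed that filter on low counts through the libraries in which it was highest, and it was close to the limit of detection in every group.

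The data are bulk RNA-seq of sorted Ly6C+ monocytes, a cell type in which Ly6C marks the classical, inflammatory subset, in 4 groups of 3 libraries each. The KO group came from E13.5 fetal liver with the genotype label KO, and the WT group from fetal liver with the genotype label WT, WT 1 at E13.5 and WT 2 and WT 3 at E15.5 (E, embryonic day). The Mixed group came from E15.5 fetal liver, also with the genotype label WT, and the BM group from WT bone marrow with no age given. The labels leave out the allele behind KO, the meaning of Mixed and how many animals gave a library. Nothing in them ties the 3 libraries of a group to different animals, and the p-values therefore speak for the spread among libraries, part of which may be technical. The series title asks about cMaf, encoded by Maf, and Zeb2, a zinc-finger repressor. Zeb2 was at 23.8, 20.1 and 22.5 CPM (counts scaled to library size) in KO 1, KO 2 and KO 3, and at 141, 143 and 165 CPM in WT 1, WT 2 and WT 3. Maf was at 9.99 CPM in KO and 13.7 CPM in WT on average (log2 -0.45, SE 0.179, adjusted p = 0.0549).

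Chemokine receptors are G protein-coupled receptors that signal mainly through the inhibitory G proteins, and each binds its own set of ligands. Ccr2 binds Ccl2 and brings classical monocytes out of the bone marrow and into inflamed tissue, whereas Cx3cr1 binds the membrane-bound chemokine Cx3cl1 and is highest on non-classical monocytes and many tissue macrophages. Ccr1 binds Ccl3, Ccl5 and related ligands on myeloid cells. Cxcr4 holds blood-forming cells in places rich in Cxcl12. Cxcr2 is the main receptor of neutrophils for Cxcl1 and Cxcl2, Cxcr3 binds the interferon-induced chemokines Cxcl9 and Cxcl10 and is best known on activated T cells, NK cells and some dendritic cells, and Ccr7 guides dendritic cells and naive T cells to lymph nodes.

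Start-site sequences of 300 bases (250 before and 50 after the start, RefSeq, GRCm38.p6) were matched for 6 of the 7 genes, all but Ccr7. Those of 4 genes are shown because these genes had the largest differences in KO or the highest level, and because Zeb2 is known to bind the letters CACCT, often as the E-box CACCTG. Capitals mark CACCT or its reverse complement AGGTG, and position 251 is the start.
Cx3cr1: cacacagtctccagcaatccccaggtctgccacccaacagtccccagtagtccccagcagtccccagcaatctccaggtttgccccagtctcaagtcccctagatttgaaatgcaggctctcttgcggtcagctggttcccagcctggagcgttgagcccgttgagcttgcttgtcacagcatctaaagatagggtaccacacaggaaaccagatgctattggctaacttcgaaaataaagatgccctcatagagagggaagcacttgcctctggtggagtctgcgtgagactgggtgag
Ccr2: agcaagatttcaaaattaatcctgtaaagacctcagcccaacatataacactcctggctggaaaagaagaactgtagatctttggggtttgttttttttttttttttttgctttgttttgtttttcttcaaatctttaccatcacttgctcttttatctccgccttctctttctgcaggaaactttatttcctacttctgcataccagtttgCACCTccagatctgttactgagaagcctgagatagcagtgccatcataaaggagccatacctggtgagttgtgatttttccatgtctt
Cxcr2: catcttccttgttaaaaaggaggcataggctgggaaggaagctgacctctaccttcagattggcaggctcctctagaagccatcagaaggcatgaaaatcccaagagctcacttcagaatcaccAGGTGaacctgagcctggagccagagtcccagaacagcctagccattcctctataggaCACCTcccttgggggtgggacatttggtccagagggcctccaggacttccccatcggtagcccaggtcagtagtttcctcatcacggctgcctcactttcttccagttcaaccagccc
Cxcr3: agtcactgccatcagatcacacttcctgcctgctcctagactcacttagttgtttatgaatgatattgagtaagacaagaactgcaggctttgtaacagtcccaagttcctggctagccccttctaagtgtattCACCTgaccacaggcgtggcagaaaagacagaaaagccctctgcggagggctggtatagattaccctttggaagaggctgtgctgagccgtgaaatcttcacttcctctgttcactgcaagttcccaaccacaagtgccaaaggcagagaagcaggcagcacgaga
They lie at chr9:120068247-120068546 (minus strand), chr9:124101933-124102232 (plus), chr1:74153744-74154043 (plus) and chrX:101734098-101734397 (minus). CACCT on either strand was present in 3 of the 6 windows, against 51.9% of 32851 RefSeq windows of the same length. It began 38 bases before the start in Ccr2, 126 and 68 bases before it in Cxcr2 and 116 bases before it in Cxcr3. The longer CACCTG, which contains CACCT, was present in 2 of the 6, Cxcr2 and Cxcr3, against 20.2% of all windows. TGCTGA, the letters of an arm of the Maf recognition element, was found 36 bases before the start of Cxcr3 and in none of the other windows of these genes (19.5% of all windows). These matches describe letters in a window and no binding was measured.

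Measured per length, in the TPM values that the authors deposited, Ccr2 was the leading receptor transcript in every group. In WT it stood at 362, 384 and 309 TPM in the 3 libraries, followed by Ccr1 (mean 170 TPM), Cx3cr1 (32.6), Cxcr2 (22), Cxcr4 (20.6) and Cxcr3 (3.22), with Ccr7 at 0.0513. Cxcr2 (20.5 to 24.9 TPM) and Cxcr4 (18.9 to 21.8 TPM) overlapped in WT, and the other neighbours in this order did not. In Mixed the order was the same, without overlap. In KO Cxcr2 (mean 48.5 TPM) held the third place, and Cx3cr1 (6.93 TPM) came after Cxcr4 (23.2 TPM) and Cxcr3 (21.5 TPM). In bone marrow Cx3cr1 (149 TPM) ranked second, ahead of Ccr1 (63.6 TPM) and Cxcr4 (44.1 TPM), and Cxcr2 (3.01 TPM) fell behind Cxcr3 (5.22 TPM).

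The same scale gives the makeup of the receptor transcripts. Summed over 25 mouse chemokine receptor genes, WT libraries held 583.9 to 650.0 TPM, KO libraries 571.7 to 596.0, Mixed libraries 745.2 to 762.8 and bone marrow libraries 1302 to 1317. WT and KO overlapped in this sum while its parts differed. Ccr2 made up 52.8 to 59.1% of it in WT, 45.5 to 47.6% in KO, and Mixed libraries gave it 59.6 to 61.5% and bone marrow libraries 78.7 to 79.2%. Ccr1 kept a like share in the fetal liver groups, 26.6 to 29% in WT and 27.5 to 28.2% in KO, and had 4.64 to 5% in bone marrow. Cxcr2 held 7.94 to 8.89% in KO and 3.16 to 4.26% in WT. The 7 genes together made up 96.6 to 97.6% of the sum in WT, 91.6 to 92% in KO and 99.1 to 99.3% in bone marrow.

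**Figure D1:**
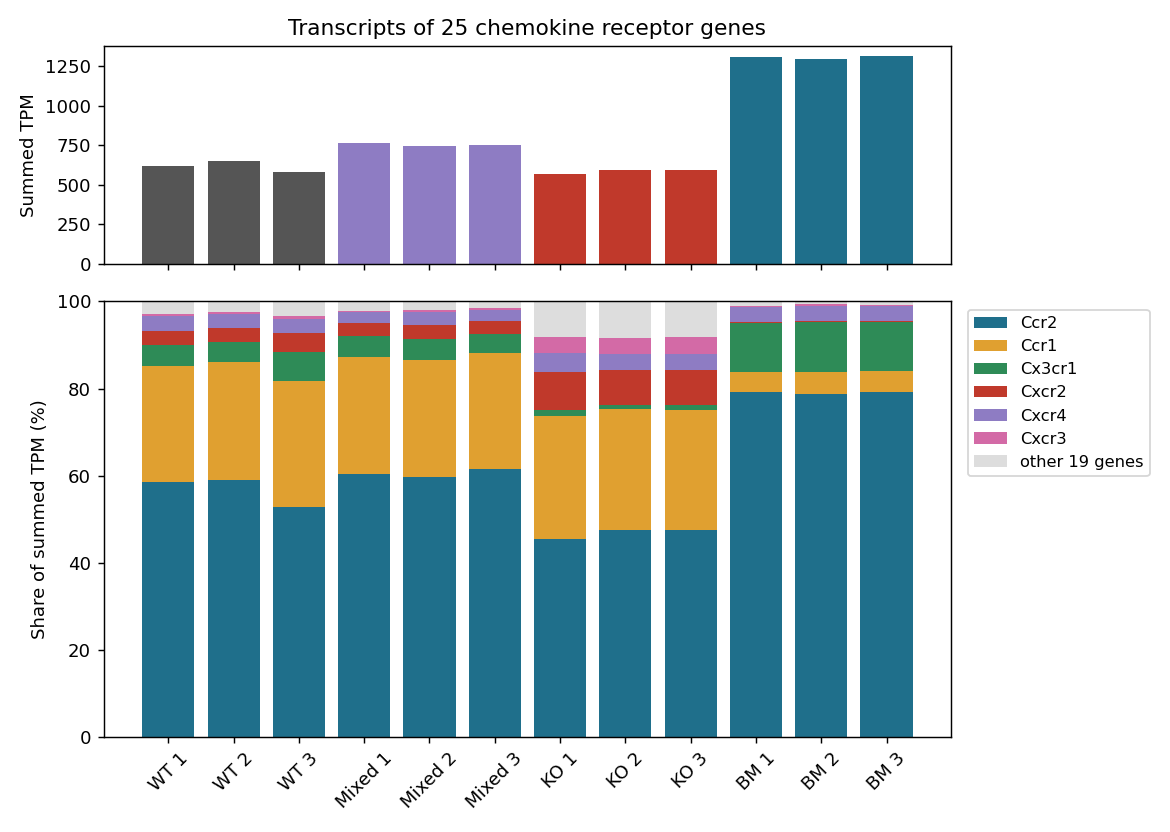
Summed TPM of 25 chemokine receptor genes in each library (upper bars) and the percent of that sum held by single genes (lower bars, stacked to 100%). Ccr2 takes 45.5 to 47.6% in the KO libraries and 78.7 to 79.2% in the bone marrow libraries, and Cxcr2 and Cxcr3 are visibly wider in KO.

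KO and WT fetal liver monocytes differed in which chemokine receptor transcripts were high: Cxcr2 and Cxcr3 were higher in KO and Cx3cr1 was lower. The differences of Cxcr4 (1.24-fold higher) and Ccr2 (1.2-fold lower, with overlapping groups) were small, and Ccr1 was not called. Ccr7 is given apart below, since it passed the filter on low counts through KO 1, KO 2 and BM 1 and its call is no support for a difference. With Ccr7 counted, 6 of 7 genes had an adjusted p under 0.05 (edgeR's quasi-likelihood test with Benjamini-Hochberg adjustment over all genes tested). This stands against 38.1% of all genes, with 4 higher (18.2% of all genes) and 2 lower (19.9%). The 7 genes were chosen with earlier results of these data known. Their count in this and the other comparisons is therefore no test of chemokine receptors as a set. The median log2 fold change of the 7 genes was 0.31, and that of all genes tested was -0.0287. Groups that did not overlap were found for 47.4% of all genes tested in this comparison. The KO libraries were all from E13.5 and only WT 1 shared that day, so genotype and age overlapped in part. When embryonic day was added to the fit for the fetal liver libraries, KO was in effect compared with WT 1 only. Then 5 of the 7 genes were called, Ccr7 among them, and 3706 of all genes in place of 5565. Lower or higher values in bulk samples can come from fewer cells of a type or less RNA per cell, and these cannot be told apart.

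Among the receptors of monocytes, Cx3cr1 fell the most. It was at 22.5, 17.9 and 22.1 CPM in KO 1, KO 2 and KO 3, and at 76, 76.1 and 103 CPM in WT 1, WT 2 and WT 3. The lowest WT library, WT 1 of the same embryonic day, lay above every KO library, and the fall was 2.03 on the log2 scale (SE 0.112, 4.08-fold, adjusted p = 1.31e-09). The age covariate gave log2 -1.85 (SE 0.146, adjusted p = 1.11e-06). Cx3cr1 (ENSMUSG00000052336, minus strand of chromosome 9, 119901616 to 120069879 in the GENCODE annotation of GRCm38) is annotated there with a long gene body that overlaps Xirp1, Csrnp1 and Gorasp1 on the same strand and other genes, among them Wdr48 and Ttc21a, on the opposite strand. Reads of those on the same strand could count toward it however strand was handled, and reads of the others where strand was not used. The overlap is of whole gene bodies, and exons were not compared. Cx3cr1 had whole counts in every library.

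Ccr2 was at 640, 713 and 682 CPM in KO and at 861, 869 and 703 CPM in WT. KO 2 lay above WT 3, so the groups overlapped, and the difference was small (log2 -0.26, SE 0.0653, adjusted p = 0.00362, 1.2-fold lower in KO). Ccr2 (ENSMUSG00000049103, chromosome 9, 124101950 to 124113557) had counts that were not whole in all 12 libraries, so reads were divided between similar sequences. A difference of this small size is therefore uncertain.

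Ccr1 was at 308, 324 and 309 CPM in KO and at 302, 305 and 301 CPM in WT. The KO libraries were above the WT libraries by a few CPM (log2 0.05, SE 0.0475, adjusted p = 0.434), and with scaling by total counts alone the sign turned (log2 -0.05, adjusted p = 0.406). Ccr1 (ENSMUSG00000025804, minus strand of chromosome 9, 123962124 to 123968692) had whole counts in every library.

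Cxcr3 rose the most among the genes with ample counts. It was at 30.5, 30.7 and 31.6 CPM in KO and at 3.79, 3.71 and 4.89 CPM in WT. The 3 KO libraries were close to each other and far from WT (log2 2.90, SE 0.147, 7.47-fold, adjusted p = 6.9e-13, and log2 3.04 with the age covariate). Cxcr3 (ENSMUSG00000050232) is on the minus strand of chromosome X, from 101731535 to 101734269.

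Cxcr2 (ENSMUSG00000026180, chromosome 1, 74153989 to 74161246) was at 116, 112 and 109 CPM in KO and at 44.4, 43.8 and 54.2 CPM in WT. WT 3 was the highest of its group and still below every KO library. The rise was 2.36-fold (log2 1.24, SE 0.116, adjusted p = 3.24e-07). With the age covariate it was log2 1.36 (SE 0.114, adjusted p = 1.11e-07).

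Cxcr4 (ENSMUSG00000045382, minus strand of chromosome 1, 128588199 to 128592293) was at 33.8, 32.3 and 30.3 CPM in KO and at 26.7, 27 and 24.1 CPM in WT. The groups did not overlap, but the difference was 1.24-fold (log2 0.31, SE 0.094, adjusted p = 0.013). It was not called without KO 1 (adjusted p = 0.0535), without WT 3 (adjusted p = 0.0577), with scaling by total counts alone (adjusted p = 0.0846) or with the age covariate (log2 0.28, SE 0.149, adjusted p = 0.19).

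Ccr7 (ENSMUSG00000037944, minus strand of chromosome 11, 99144196 to 99155077) was near the floor of detection. KO libraries held 15, 11 and 10 counts, WT libraries 0, 4 and 1, where a count of 0 allows up to 0.167 CPM in WT 1 (3 counts, counting error only). Mean levels were 0.561 CPM in KO and 0.0752 CPM in WT, and every KO library was above every WT library (log2 2.71, SE 0.953, adjusted p = 0.0284). The call was lost without KO 1 (adjusted p = 0.0723), KO 2 (0.0599), WT 1 (0.0963) or WT 3 (0.0828), and with DESeq2 (0.0965).

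**Figure D2:**
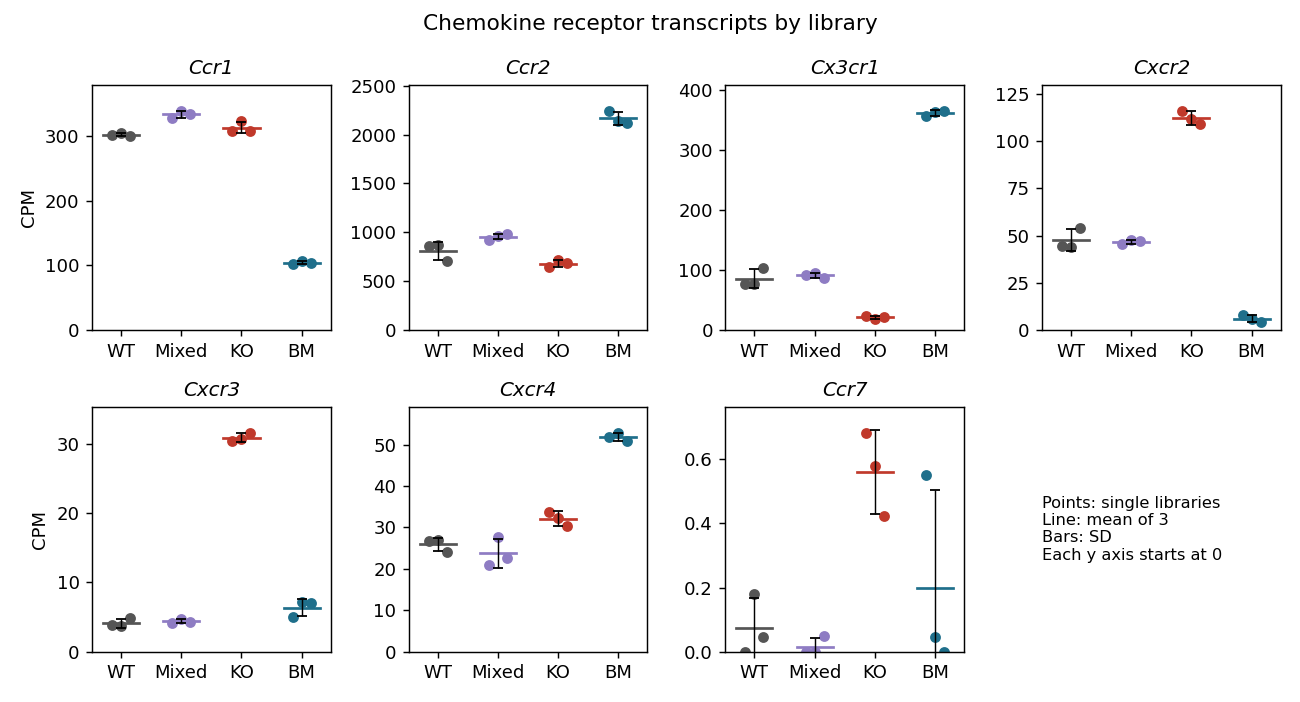
CPM of each gene in every library, in panels with linear axes that start at 0 (points, libraries; lines, means of 3; bars, SD). Cxcr3 is at 30.5 to 31.6 CPM in KO and below 8 CPM elsewhere, Cx3cr1 and Cxcr2 run in opposite orders across KO and bone marrow, and Ccr7 stays under 1 CPM.

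Set against Mixed, whose libraries were all of E15.5, KO had more Cxcr2, Cxcr3 and Cxcr4 transcript and less Cx3cr1 and Ccr2. Of the 7 genes, with Ccr7 counted, 6 were called against 36.7% of all genes, 4 higher (18.2% of all genes) and 2 lower (18.5%), with a median log2 fold change of 0.43 (all genes -0.0219). No embryonic day holds both groups, so the plain difference takes in the day. The WT libraries, which hold both days, allow a fit with day as a covariate, and it called 5 of the 7 genes, Ccr7 among them, and 1959 of all genes in place of 5365. In that fit the effect of day rests on WT 1 alone against WT 2 and WT 3 and is taken to be equal in all groups. It therefore cannot show that the day was fully removed. The comparison of KO with Mixed shares the KO libraries with the one above, so its values are a second reading and no independent support.

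Cx3cr1 was at 90.7, 94.3 and 86.8 CPM in Mixed, all above KO (log2 -2.12, SE 0.112, 4.34-fold lower in KO, adjusted p = 7.84e-10). Ccr2 was at 925, 958 and 982 CPM in Mixed, without overlap (log2 -0.49, SE 0.0653, adjusted p = 4.44e-06). Cxcr3 was at 4.16, 4.69 and 4.33 CPM in Mixed, 7.03-fold under KO (log2 2.81, SE 0.145, adjusted p = 9.16e-13). The KO libraries thus lay beyond all Mixed libraries for each of these 3 receptors, and 48.3% of all genes tested had groups that did not overlap. With the age covariate the differences were log2 -1.87 for Cx3cr1 (SE 0.19, adjusted p = 2.09e-05), -0.62 for Ccr2 (SE 0.125, adjusted p = 0.00379) and 3.00 for Cxcr3 (SE 0.258, adjusted p = 3.38e-07). Cxcr2 was at 45.4, 47.6 and 47 CPM in Mixed (KO 2.41-fold higher, adjusted p = 2.56e-07, and log2 1.42 with the age covariate, SE 0.14, adjusted p = 1.48e-06). Cxcr4 was at 20.9, 27.7 and 22.7 CPM (KO 1.35-fold higher, adjusted p = 0.000905), and this call was lost with the age covariate (adjusted p = 0.213). Ccr7 had 36 counts in KO and 1 in Mixed, a ratio of 36 with a 95% exact interval of 6.06 to 1460 that covers counting error only. Ccr1, at 328, 339 and 335 CPM in Mixed, was not called (log2 -0.09, SE 0.0474, adjusted p = 0.146). With scaling by total counts alone it was called lower in KO (log2 -0.19, adjusted p = 0.00178).

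Mixed and WT monocytes, both with the genotype label WT, had receptor levels near each other. Of the 7 genes 1, Ccr2, was called (higher in Mixed, log2 0.24, SE 0.0652, 1.18-fold, adjusted p = 0.0298), against 8.07% of all genes, 4.21% being higher and 3.87% lower. The Mixed libraries (925 to 982 CPM) were all above the WT libraries (703 to 869 CPM), and WT 3 was the lowest. The call was lost without Mixed 1 (adjusted p = 0.0667), Mixed 2 (0.0677), Mixed 3 (0.114) or WT 3 (0.0879), in a fit of the 2 groups alone (0.0744) and with the age covariate (0.0709). The background moved too: of 1180 genes called, 419 were left without Mixed 1, 670 without Mixed 3, 478 without WT 1 and 696 without WT 2. The 1 call among 7 genes is near the background share.

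Groups that did not overlap, as for Ccr2, were found for 27% of all genes tested in this comparison. Among the remaining receptors the groups overlapped, except for Ccr1. It was above WT in all 3 Mixed libraries (log2 0.14, SE 0.0475, adjusted p = 0.0675) and passed the threshold with DESeq2 (0.0108) and limma-voom (0.047). Cx3cr1 (log2 0.09, SE 0.102, adjusted p = 0.673) was called only without WT 3 (log2 0.25, adjusted p = 0.0279), among all alternatives run for it. Cxcr3 (log2 0.09, SE 0.161), Cxcr2 (log2 -0.03, SE 0.118) and Cxcr4 (log2 -0.13, SE 0.0954) were not called, with adjusted p = 0.816, 0.929 and 0.483. Ccr7 had 1 count in Mixed and 5 in WT, a ratio of 0.191 with a 95% exact interval of 0.00403 to 1.7.

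Bone marrow monocytes carried more Ccr2 and Cx3cr1 transcript and less Ccr1 and Cxcr2 than fetal liver WT monocytes. Of the 7 genes 6 were called, against 64.0% of all genes, with 4 higher (32.1% of all genes) and 2 lower (31.9%) and a median log2 fold change of 1.00 (all genes 0.00308). With so many genes changed, the number of receptors called says little, and their sizes follow. The tissue differs in this comparison and bone marrow has no age given, so tissue and age cannot be told apart.

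Cx3cr1 was at 356, 363 and 364 CPM in bone marrow, 4.24-fold over WT (log2 2.09, SE 0.103, adjusted p = 8.32e-11). Ccr2 was at 2240, 2140 and 2120 CPM, 2.67-fold over WT (log2 1.42, SE 0.0662, adjusted p = 1.88e-13). Cxcr4 was at 51.9, 52.8 and 50.9 CPM, 2-fold over WT (log2 1.00, SE 0.0929, adjusted p = 4.2e-09). For these 3 receptors the lowest bone marrow library was above the highest WT library, and 68.1% of all genes tested had groups that did not overlap, in either direction. Cxcr3, at 4.95, 7.13 and 6.99 CPM, exceeded WT by 1.54-fold (log2 0.63, SE 0.156, adjusted p = 0.00143), and BM 1 was only just above WT 3.

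In the other direction, Cxcr2 was at 7.75, 5.78 and 4.02 CPM in bone marrow and fell by 3.03 on the log2 scale (SE 0.146, 8.17-fold, adjusted p = 1.88e-11). Ccr1 was at 102, 107 and 104 CPM, 2.9-fold below WT (log2 -1.54, SE 0.0493, adjusted p = 8.15e-17). Every bone marrow library was below every fetal liver library for both genes. Bone marrow did not overlap with WT for 68.1% of all genes tested, with Mixed for 64.2% and with KO for 67.7%. Ccr7 had 10 of its 11 bone marrow counts in BM 1, a library with counts in 24422 genes where BM 2 had 20077 and BM 3 19896. The part of that library in the value was not tested, and its difference from WT was not called (log2 1.18, SE 1.11, adjusted p = 0.366). Without BM 1 its sign turned (log2 -1.53, adjusted p = 0.39).

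Against Mixed, 6 of the 7 genes were called in bone marrow (58.4% of all genes), 4 higher (29.5%) and 2 lower (28.9%). Here too the tissue differs and bone marrow has no age given, so tissue and age cannot be told apart. Cx3cr1 was 3.99-fold, Ccr2 2.27-fold, Cxcr4 2.18-fold and Cxcr3 1.45-fold higher, and Cxcr2 was 8.03-fold and Ccr1 3.2-fold lower. Ccr7 was not called (adjusted p = 0.0648), but it was without BM 2 (adjusted p = 0.0392), without BM 3 (0.0223) and with no filter on low counts (0.0485). Its count was 11 in bone marrow and 1 in Mixed, a ratio of 11.9 with a 95% exact interval of 1.73 to 511.

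Against KO the contrast in bone marrow was widest for Cxcr2 and Cx3cr1. Bone marrow and KO differ in tissue and in genotype label, and bone marrow has no age given. The parts of tissue, genotype and age cannot be told apart. Of the 7 genes 6 were called (63.8% of all genes), 3 higher (31.8%) and 3 lower (32.0%). Cx3cr1 was 17.3-fold higher (log2 4.11, SE 0.116, adjusted p = 9.02e-14) and Cxcr2 19.3-fold lower (log2 -4.27, SE 0.145, adjusted p = 1.92e-13) in bone marrow. Cxcr3 was 4.85-fold and Ccr1 3.01-fold lower, and Ccr2 was 3.19-fold and Cxcr4 1.62-fold higher. Ccr7 was not called (log2 -1.54, SE 0.838, adjusted p = 0.114), but without BM 1 it was lower in bone marrow (log2 -4.24, adjusted p = 0.00313), and limma-voom called it lower too (adjusted p = 0.0127). Cxcr3 therefore stood on different sides of bone marrow in KO and in WT, above it in KO and below it in WT, and the comparisons share the bone marrow libraries.

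**Figure D3:**
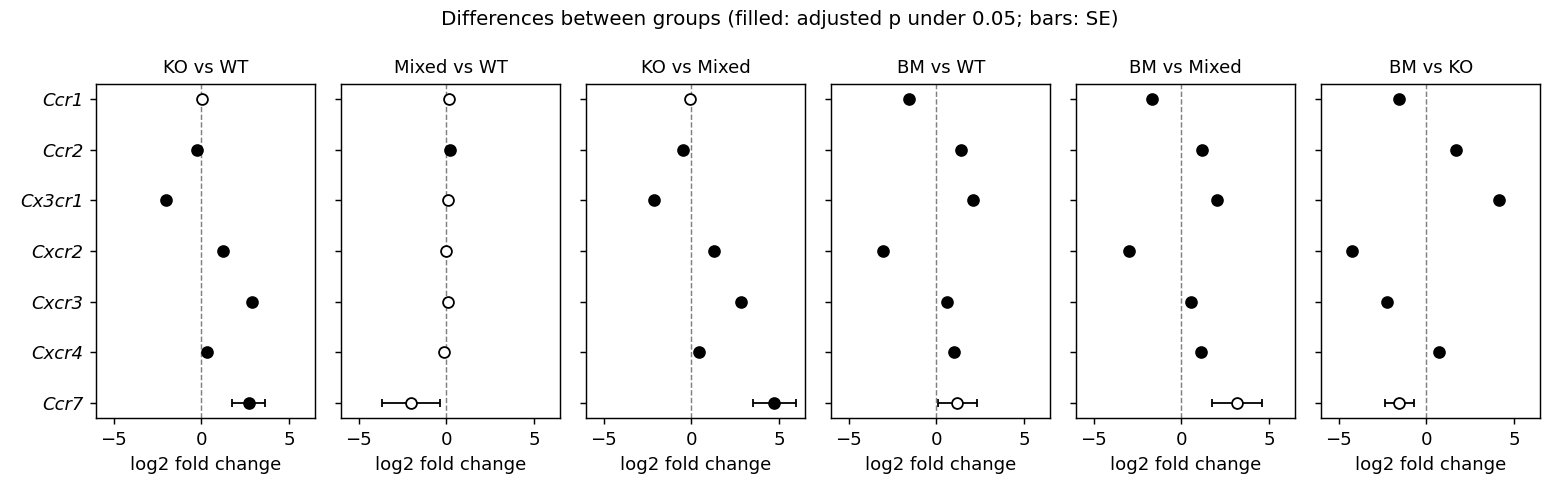
Log2 fold change of each gene (first group minus second) in the 6 comparisons, with SE as bars that are narrower than the points except for Ccr7. Filled points have an adjusted p under 0.05: 6 of 7 in every comparison but Mixed with WT, where it is Ccr2 alone.

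Among the other 18 mouse chemokine receptor genes, 7 had enough counts to be tested. In KO 3 of these were higher than in WT (18.2% of all genes) and 0 lower (19.9%). Among them were Xcr1 and Ccr10, both named after their values were seen. Xcr1, the receptor of cross-presenting dendritic cells for Xcl1, was at 3.45 CPM in KO and 1.09 CPM in WT (3.18-fold, adjusted p = 9.58e-05). Ccr10 had 50, 22 and 25 counts in KO and none in WT, which makes it at least 10.1-fold higher by a floor of 3 counts per library, and it overlaps Cntnap1 on the other strand. Ccr10 passed the filter on low counts through the KO libraries alone, so its call is no support for a difference. In bone marrow 3 of the 7 were higher than in WT (32.1% of all genes) and 2 lower (31.9%). Ccrl2, a receptor that binds chemerin without signalling, was 1.79-fold higher (adjusted p = 0.000982). Between Mixed and WT 0 of these 7 genes were called by edgeR at an adjusted p under 0.05, against 8.07% of all genes.

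The ligands of these receptors were measured in the same monocytes, with 11 of 21 listed genes tested. In KO 3 were higher than in WT (18.2% of all genes) and 4 lower (19.9%). The shares of all genes were 32.1% higher and 31.9% lower in bone marrow against WT. In Mixed against WT they were 4.21% and 3.87%. Ccl2, the main ligand of Ccr2, was at 5, 4.2 and 3.68 CPM in KO and 21.3, 20.5 and 28.5 CPM in WT (5.46-fold lower, adjusted p = 2.86e-09). Ccl9, a ligand of Ccr1, was 5.22-fold lower (8.37 and 43.6 CPM, adjusted p = 1.81e-16), and Ccl6, another Ccr1 ligand, 1.3-fold lower (adjusted p = 0.000214). Cxcl10, a ligand of Cxcr3, was 1.63-fold higher in KO with overlapping groups (adjusted p = 0.015). In bone marrow 7 were higher than in WT and 2 lower: Ccl9 was at 294.9 CPM (6.77-fold higher), Ccl6 at 766.3 CPM (6.52-fold) and Ccl2 at 63.9 CPM (2.73-fold), and Mif, which also binds Cxcr2 and Cxcr4, was 7.06-fold lower. In Mixed 0 were higher than in WT and 3 lower, among them Ccl4 (2.1-fold, adjusted p = 0.0242) and Mif (1.23-fold, adjusted p = 0.00356).

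Genes that carry or end the receptor signal were also listed. Beside their counts, 18.2% of all genes were higher and 19.9% lower in KO than in WT. These shares were 32.1% and 31.9% in bone marrow against WT and 4.21% and 3.87% in Mixed against WT. In KO against Mixed they were 18.2% and 18.5%. Of 22 signalling genes, all tested, 8 were higher and 5 lower in KO than in WT (median log2 fold change 0.06, all genes -0.0287). Ptk2b, a calcium-responsive tyrosine kinase, was 1.9-fold higher, Pik3r5, a regulatory subunit of the kinase PI3K gamma, 1.81-fold higher, Rac2, a GTPase of leukocyte movement, 1.34-fold higher and the phospholipase Plcb3 1.8-fold lower. In bone marrow 10 were higher than in WT and 5 lower, with Tiam1, an activator of Rac, 5.02-fold, Pik3cg, the catalytic subunit of PI3K gamma, 2.43-fold, Dock2 2.22-fold and Pik3r6 2.04-fold higher. Between Mixed and WT 4 were higher and 0 lower, led by Pik3r6 (1.33-fold) and Dock2 (1.22-fold). Of 13 tested desensitization genes, which switch receptors or G proteins off, 6 were higher and 2 lower in KO than in WT. The receptor kinases Grk6 (1.9-fold) and Grk3 (1.83-fold) and the G protein regulator Rgs2 (1.72-fold) were higher, and Rgs18 was 2.07-fold lower. In bone marrow 10 were higher than in WT and 0 lower, among them Grk5 (6.29-fold), Grk3 (2.14-fold), Rgs14 (2.06-fold) and Rgs10 (2-fold). In Mixed 3 were higher than in WT and 0 lower, with Grk3 1.58-fold and Arrb1, an arrestin, 1.23-fold higher. Against Mixed, KO showed 7 signalling genes higher and 7 lower and 4 desensitization genes higher and 4 lower.

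Summed markers of other cells moved along with some receptors and not with others, and their part in the results was not tested. Beside the counts of markers called, 18.2% of all genes were higher and 19.9% lower in KO than in WT. In bone marrow against WT these shares were 32.1% and 31.9%. All 14 monocyte markers had counts in every group, with a summed level of 38900 to 40000 CPM in bone marrow, 11900 to 13400 in WT, 15200 to 15400 in Mixed and 9920 to 11400 in KO. Lyz2 was the largest part of these sums (means of 21890 CPM in bone marrow, 6092 in WT, 8069 in Mixed and 4273 in KO). Of the monocyte markers, 5 were higher and 6 lower in KO than in WT (median log2 fold change 0.05). In bone marrow 11 were higher than in WT and 2 lower. Beside Cxcr2, the 10 neutrophil markers summed to 10800 to 13500 CPM in KO, 4460 to 6300 in WT, 3620 to 3930 in Mixed and 1460 to 1720 in bone marrow. In KO 5 of them were higher than in WT and 0 lower, and none of the 10 was without counts in any group. In bone marrow 3 of them were higher than in WT and 5 lower. Cd177 (547 CPM in bone marrow, 19.2 in WT), Mmp8 (302.4 and 162.4) and Csf3r (270.3 and 153.1) had higher means there, opposite to Cxcr2. S100a8 (5698 CPM in KO, 3057 in WT) and S100a9 (4605 and 902.1 CPM) carried most of the KO sum. Mmp8 (1033 and 162.4 CPM), Csf3r (283.4 and 153.1) and Ly6g (11.2 and 0.831) also had higher means in KO. So did Retnlg (16.7 and 13.8), with overlapping groups. Ltf (means of 230.1 CPM in KO and 333.6 in WT), Camp (61.4 and 80.2), Ngp (239.5 and 415.8) and Cd177 (9.89 and 19.2) had lower means in KO, with overlapping groups, and were not called. Beside Cxcr3 and Ccr7, the 9 conventional dendritic cell markers summed to 2580 to 2590 CPM in KO and 107 to 139 in WT, with 8 higher and 1 lower. They summed to 975 to 1080 CPM in bone marrow, where 6 were higher than in WT and 1 lower, and to 83.8 to 96 CPM in Mixed. Cd74 carried most of the sum in KO (mean 1957 CPM), WT (83.2) and bone marrow (847.8). The marker with the lower mean in KO was Cd209a (0.225 CPM in KO, 8.52 in WT). The T and NK cell markers summed to 15.9 to 19 CPM in KO and 4.24 to 5.78 in WT, of which Nkg7 alone gave 15.6 to 18.4 CPM in KO, with Cd3e, Klrb1c, Ncr1 and Gzma without a count in KO. Beside Cx3cr1, the 9 macrophage markers overlapped between KO (207 to 243 CPM) and WT (210 to 277 CPM), 0 were higher and 1 lower, and Vsig4 had no count in either group. Adgre1 carried most of these sums, with means of 195.6 CPM in KO and 184.6 in WT. In bone marrow the macrophage markers summed to 312 to 325 CPM, with a mean of 315.2 from Adgre1. There 1 of the 8 tested was higher than in WT and 7 lower, while Cx3cr1 was higher. Beside Cxcr4, the 6 stem and progenitor markers summed to 222 to 258 CPM in KO, 594 to 641 in WT and 48.4 to 54.6 in bone marrow. This sum was thus lower where Cxcr4 was higher. In KO 1 of them was higher than in WT and 1 lower, and in bone marrow 0 were higher and 6 lower. Cd34 (174.3 CPM in KO, 534.6 in WT) carried most of the difference between KO and WT.

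The genes whose pattern lay closest to each receptor were found by the root mean square difference in log2 CPM over the 12 libraries, after each gene's own mean was subtracted. This was done for the 6 receptors with enough counts against 10003 other genes. For Ccr2 they were Slc25a24 (0.068), Mlkl (0.091) and Clec4a1 (0.113), and for Ccr1 Ctsc (0.084), Tpi1 (0.087) and Tes (0.105). For Cx3cr1, which itself varied by 1.46 around its mean on this scale, they were Msr1 (0.225), Fas (0.243) and Deptor (0.266). Cxcr3 was nearest to Castor2 (0.181), Mxd1 (0.221) and Kmo (0.234). Cxcr2 was nearest to Thbs1 (0.253), F11r (0.279) and Bcl2a1a (0.295), the last of these a member of a family with near-identical copies. Cxcr4 was nearest to Ankle2 (0.097), Syf2 (0.111) and Mtm1 (0.115), with a spread of its own of 0.45. No receptor was among the nearest genes of another.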

How the data were processed

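Estimated counts per gene were deposited by the authors for all 12 libraries together. The submitters' processing notes name Salmon, STAR, DRAGEN, featureCounts and Subread and the build mm10, without roles. Of the nonzero counts, 28.5% were not whole (tolerance 1e-06), and no source used here says whether counting used strand. The deposited CPM table was not used. TPM values deposited by the authors served to compare genes with each other.

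From 55774 entries, 287 repeats of an Ensembl gene with identical values were removed and counts were rounded. Library totals ran from 17384956 to 24473502, and none of 66 pairs of libraries was identical (the 12 pairs within a group had a chi-square of 4.63 to 11.3 per degree of freedom, above sampling noise). Genes were kept by filterByExpr (minimum count 10, minimum total 15), scaled by TMM and tested together in all 12 libraries with edgeR's quasi-likelihood F test (robust fit). Two-sided p-values had a Benjamini-Hochberg adjustment over the 14618 genes tested, with a threshold of 0.05, and the SE is the log2 fold change divided by the root of the F statistic. Log values for patterns used a prior count of 2. Levels are CPM on TMM-scaled library sizes. The fit was tested on simulated data. The software was edgeR 4.0.16 in R 4.3.3, with DESeq2 1.42.0 and limma 3.58.1.

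The members, gene lists and markers were chosen with earlier results of these data known. Named beside the receptors were up to 4 called genes of each related list with the largest change and at least 1 log2 CPM in KO and BM against WT, up to 2 in other comparisons, and the 3 nearest patterns. Libraries with the same replicate number did not deviate together (18 pairs, correlation -0.04 to 0.07). The values of 1 other receptor gene are not reported here.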

Additional observations from a re-analysis of the deposited data

How the results depend on the processing

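The 7 receptors in 6 comparisons were recomputed with other scalings (RLE factors, total counts), DESeq2, limma-voom, no filter on low counts, the 2 groups alone, each library left out, a replicate block and, in fetal liver, the embryonic day as a covariate. Genes tested were held fixed when libraries were left out. Cx3cr1, Cxcr2 and Cxcr3 kept their direction and their call in every comparison of KO or bone marrow under each of these. In all, 3 values changed sign, none of them called: Ccr1 in KO against WT with total counts (log2 -0.05), Ccr7 in bone marrow against WT without BM 1 (-1.53, with 2.63 the highest without another library) and Cxcr2 in Mixed against WT without WT 3 (0.08, with -0.08 the lowest). The cause was not tested. The number of receptors called in Mixed against WT was 0 with the 2 groups alone and with the age covariate, 2 with limma-voom and with DESeq2, and 0 to 1 over fits without 1 library. Over those fits it was 4 to 6 in KO against WT. With the age covariate KO against WT rests on WT 1 and Mixed against WT on WT 2 and WT 3, and KO against Mixed uses all WT libraries. Genes called were then 3706 in KO against WT, 396 in Mixed against WT and 1959 in KO against Mixed. Without 1 library, 419 to 1486 genes were called in Mixed against WT.

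The labels do not tie equal replicate numbers to a shared animal or day, and libraries of the same number did not deviate together. With the replicate block 6 receptors were called in KO against WT and 1 in Mixed against WT, and the block changed no call of a receptor. With total counts the median of all genes moved to -0.13 in KO against WT and to -0.123 in KO against Mixed, so log2 differences of that size, such as those of Ccr1, depend on the scaling. Ratios from TPM differed from those of CPM by more than the replicate SD in 14 of 42 values and changed no called direction. Depth limits Ccr7, with at most 15 counts in a library.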
